A study of Mus musculus with 8 samples.

Results

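The unfolded protein response and endoplasmic reticulum (ER) quality control genes were described in the prefrontal cortex (PFC) of mice that overexpressed *Rnf146* or eGFP. Members were taken by gene symbol from a fixed list of 32, and 31 of them were among the 15039 genes of the deposited table. *Trib3*, a pseudokinase gene induced by the stress pathway, had no row, so its expression was not analysed here. *Rnf146* encodes a RING ubiquitin ligase that recognizes poly(ADP-ribosyl)ated proteins, and the study asked how its overexpression changed transcription in the PFC. All animals were wild-type (WT) male C57BL/6NCrljOri mice, injected on both sides of the PFC at 6 weeks of age and dissected 4 weeks later. The Rnf146 group (n = 4 libraries) received AAV2/1-hsyn-RNF146-eGFP and the eGFP group (n = 4 libraries) received AAV2/1-hsyn-eGFP, so every animal carried an adeno-associated virus (AAV) and eGFP. The human synapsin promoter (hsyn) restricts the transgene to neurons, whereas the RNA came from the whole dissected tissue. Reads of the viral and the endogenous *Rnf146* were counted together, and the study describes the sequenced Rnf146 mice as animals checked for overexpression and for a social deficit.

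The ER folds and modifies membrane and secreted proteins. When unfolded proteins accumulate there, the membrane sensors IRE1α (*Ern1*), PERK (*Eif2ak3*) and ATF6 (*Atf6*) activate the transcription factors XBP1, ATF4 and cleaved ATF6, which induce chaperones, protein disulfide isomerases and the machinery of ER-associated degradation (ERAD). ATF4 also drives amino acid synthesis genes and, under lasting stress, *Ddit3* (CHOP). Much of this regulation lies in splicing, translation or cleavage, which gene-level RNA values do not show: spliced and unspliced *Xbp1* mRNA are summed.

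The DNA motifs through which these factors are known to act are shown for the members with values that carry them, because such genes are the usual RNA readout of the pathway. RefSeq promoters (build GRCm38.p6, 250 bases before to 50 after a gene's start) were found for 28 of the 32 members and searched on both strands. The ER stress response element (ERSE), bound by ATF6 and XBP1 with NF-Y, was written as CCAAT and CCACG 9 bases apart. It was present in 6 members (*Calr*, *Canx*, *Creld2*, *Pdia6*, *Derl3* and *Syvn1*) and in 0.119% of all 32851 promoters. Of the 11133 genes of the table with a promoter, 0.153% had it. Capitals mark the 2 parts of the motif, each sequence runs 5′ to 3′ on the strand of its gene, and CGTGG with ATTGG is the same motif read on the other strand.
Calr, chr8:84847063-84847105, minus strand: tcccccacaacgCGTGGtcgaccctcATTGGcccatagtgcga
Canx, chr11:50325788-50325830, minus strand: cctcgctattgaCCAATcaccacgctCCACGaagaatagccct
Creld2, chr15:88819508-88819550, plus strand: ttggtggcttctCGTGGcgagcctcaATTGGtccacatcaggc
Pdia6, chr12:17266479-17266521, plus strand: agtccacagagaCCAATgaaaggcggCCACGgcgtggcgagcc
Derl3, chr10:75893230-75893272, plus strand: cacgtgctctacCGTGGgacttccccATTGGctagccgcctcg
Syvn1, chr19:6046520-6046562, plus strand: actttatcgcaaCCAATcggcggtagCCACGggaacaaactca
Counted from the start of the gene, the motif began at position -162 in *Calr* and -44 in *Syvn1*, and the other 4 lay between them. The classic target *Hspa5* (BiP, the main ER Hsp70 chaperone), which is not a member, is shown as the reference for the motif.
Hspa5, chr2:34772013-34772055, plus strand: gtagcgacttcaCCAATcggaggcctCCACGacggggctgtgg

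*Herpud1*, an ERAD scaffold gene, held the related element ERSE-II (ATTGG and CCACG 1 base apart). That element was in 0.0365% of all promoters and in 0.0808% of the genes of the table with a promoter. *Herpud1* also held the core TGATGNAA of the C/EBP-ATF element that ATF4 binds, as did *Asns* (asparagine synthetase) and *Chac1* (a glutathione-degrading enzyme). *Trib3* held it too, within its transcript, and is not shown because it had no values. That core is short, with 3.97% of all promoters and 2.67% of the genes of the table with a promoter carrying it.
Herpud1, ERSE-II, chr8:94386365-94386399, plus strand: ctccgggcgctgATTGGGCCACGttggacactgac
Herpud1, ATF4 core, chr8:94386305-94386336, plus strand: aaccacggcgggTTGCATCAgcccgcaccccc
Asns, ATF4 core, chr6:7693213-7693244, minus strand: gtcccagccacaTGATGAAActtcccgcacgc
Chac1, ATF4 core, chr2:119351037-119351068, plus strand: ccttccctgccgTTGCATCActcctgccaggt
The ATF6 site TGACGTG was in the window of 0 members, in 2.01% of all promoters and in 3.18% of the genes of the table with a promoter. A match describes letters in the window and does not show binding in these tissues.

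The deposited values were on a log2 scale, from 7.86 to 18.79, with no counts, so the sequencing depth is unknown. For every gene the eGFP and Rnf146 values with the same replicate number had the same sum in all 4 pairs, so a gene carried 4 independent measurements, the pair differences (Rnf146 minus eGFP). With equal sums, the groups of a gene cannot overlap when its 4 differences have the same sign, so an absence of overlap adds nothing to that sign. A difference of 1 is a doubling on the deposited scale, and ± gives the SD of the 4 pair differences. No source says that the libraries came from separate animals, so p-values measure only the spread between these samples. *Rnf146* was 10.35, 10.50, 10.43 and 10.47 in eGFP libraries 1 to 4 and 13.17, 13.01, 13.08 and 13.05 in Rnf146 libraries 1 to 4. It was higher in all 4 pairs, by 2.64 ± 0.13 (limma, adjusted p = 3.18e-07). Across all genes, 188 (1.25%) had an adjusted p no higher than 0.1, the threshold used in the study, with the pair as a block and are referred to as called. Without the block the number was 3226 (21.5%). In this bulk tissue, fewer cells of a type and less RNA per cell cannot be told apart. Septal markers moved with the groups: the mean of 6 septal marker genes was higher in all 4 pairs, by 0.27 to 0.58, with 5 of the 6 genes called. The mean of 9 striatal marker genes (none called) was -0.09 in pair 1 and 0.27 to 1.25 in pairs 2 to 4. The mean of 10 cortical excitatory neuron genes (2 called) was lower in pairs 1, 2 and 4, by differences of -0.37 to -0.18. In pair 3 it was -0.00, with 5 genes higher and 5 lower.

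None of the 31 members was called by limma with the pair block, and 0 had an unadjusted p under 0.05, which 12.4% of all genes had. The lowest adjusted p among the members was 0.409, for *Xbp1*. The median difference of the members was -0.03, against 0.00 for all genes, with 13 members above and 18 below 0. Member means ran from -0.10 (*Sdf2l1*) to 0.16 (*Edem1*). The median size of a difference was 0.05 in the members, as in all genes (0.0535 and 0.0492), and in 27 members it was smaller than the SD of the 4 pairs. Every 95% confidence interval of a member lay between -0.27 and 0.33 and included 0. Because the intervals were not adjusted for the number of genes and low values may be compressed, larger changes are not excluded. Without the pair block 4 members passed the threshold (*Xbp1*, *Atf4*, *Ddit3* and *Syvn1*), all lower, against 21.5% of all genes.

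**Figure D1:**
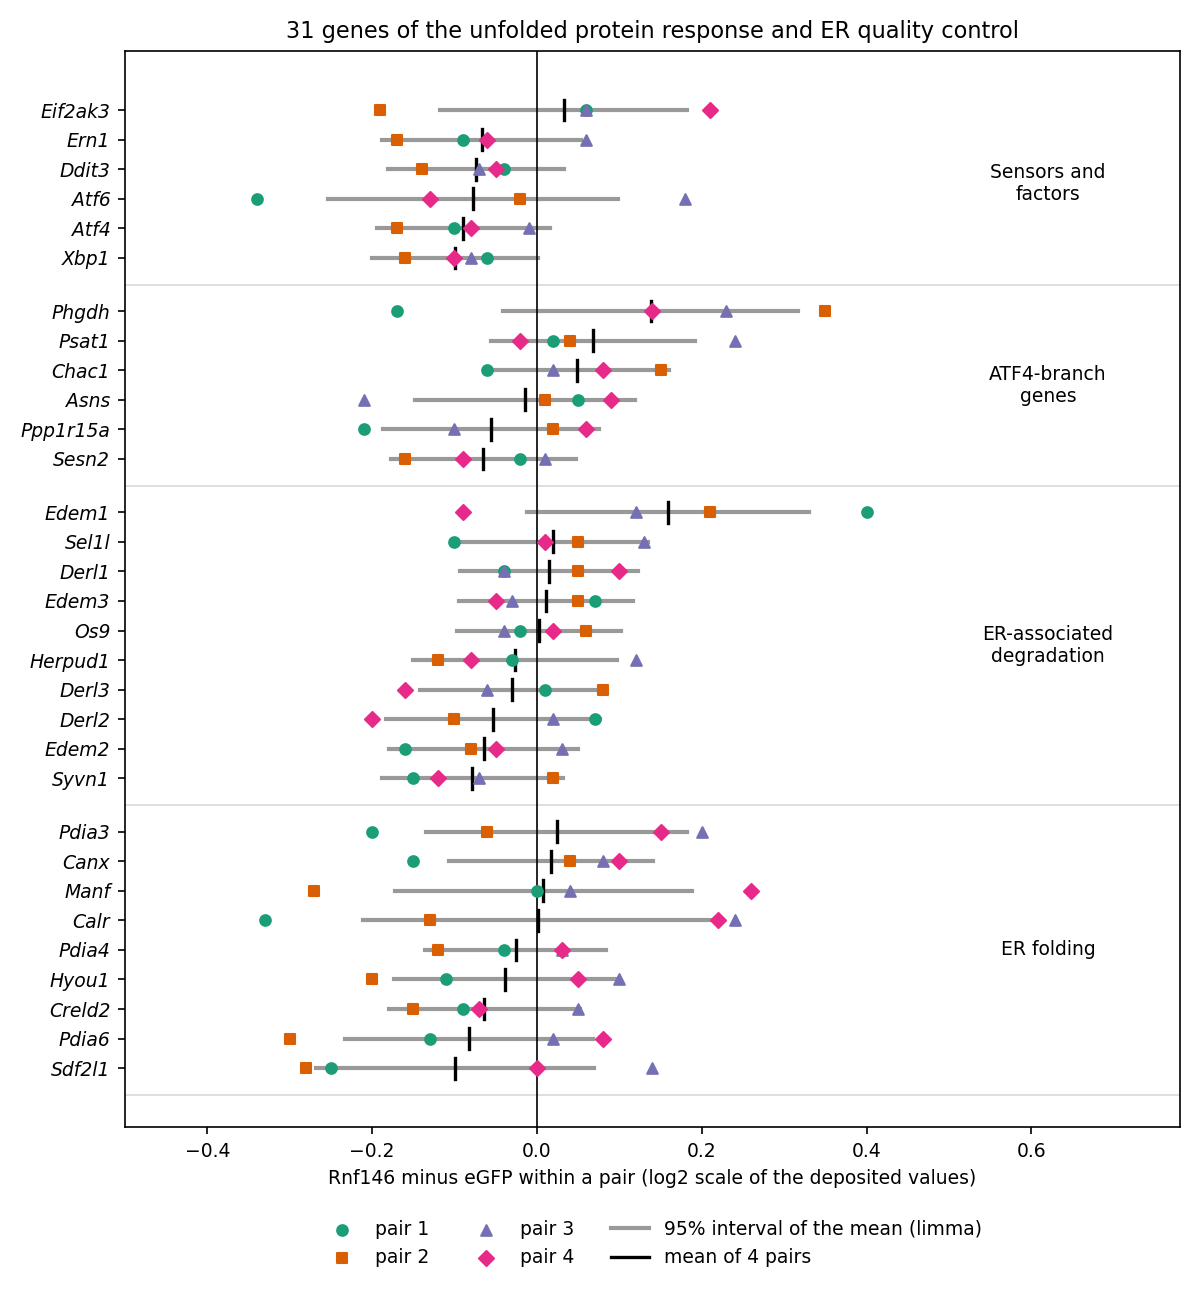
Differences (Rnf146 minus eGFP, log2 scale, horizontal axis) of the 31 members in each of the 4 pairs (points), ordered by role, with the mean of each member. The points of most members fall on both sides of 0, and *Xbp1*, *Atf4* and *Ddit3* are the members with all 4 points below 0.

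Among the 6 sensors and transcription factors, 5 means were below 0 and none was called. The list's median was -0.08, and its mean by pair was -0.09, -0.14, 0.02 and -0.04. *Xbp1*, *Atf4* and *Ddit3* were lower in all 4 pairs. They made up 9.68% of the members, whereas 10.2% of all genes were lower in all 4 pairs, and no member was higher in all 4, as 10.4% of all genes were.

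*Xbp1* (GRCm39 chr11:5470606-5483027, plus strand) encodes the factor whose mRNA IRE1α splices. Its value was 11.09, 11.14, 11.10 and 11.11 in eGFP libraries 1 to 4 and 11.03, 10.98, 11.02 and 11.01 in the Rnf146 libraries. The pair differences were -0.06, -0.16, -0.08 and -0.10. The mean was -0.10 ± 0.05 (95% interval -0.20 to 0.00). In limma it missed the threshold with the pair block (adjusted p = 0.409) and passed it only without the block (adjusted p = 0.0229). *Xbp1* shares exon bases with *Ccdc117* on the opposite strand, whose pair differences were 0.23, -0.21, 0.00 and -0.17.

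*Atf4* (GRCm39 chr15:80139372-80141745, plus strand), translated when PERK or a related kinase phosphorylates eIF2α, was 11.23, 11.27, 11.19 and 11.23 in the eGFP libraries. The Rnf146 libraries had 11.14, 11.10, 11.18 and 11.14. Pair 2 had the largest difference, -0.17, and pair 3 differed by only -0.01. The mean difference was -0.09 ± 0.06 (95% interval -0.19 to 0.02, limma adjusted p = 0.471 with the block and 0.0501 without it). *Ddit3* (GRCm39 chr10:127126698-127129622, plus strand), the CHOP gene downstream of ATF4, was 9.45, 9.51, 9.47 and 9.46 in the eGFP group. In the Rnf146 group it was 9.42, 9.36, 9.40 and 9.41, with the largest difference in pair 2 (-0.14). Its mean difference was -0.07 ± 0.05 (95% interval -0.18 to 0.03, limma adjusted p = 0.564 with the block and 0.0675 without it). *Ddit3* shares exon bases with *Mars1* on the opposite strand, which differed by -0.05 on average.

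The 3 sensor genes overlapped between the groups. *Ern1*, encoding IRE1α, was 9.66, 9.70, 9.58 and 9.64 in the eGFP libraries and 9.57, 9.53, 9.64 and 9.58 in the Rnf146 libraries. It was lower in every pair but pair 3, with a mean of -0.07 ± 0.09 (limma adjusted p = 0.662). *Atf6* was 11.66, 11.50, 11.40 and 11.56 in the eGFP libraries and 11.32, 11.48, 11.58 and 11.43 in the Rnf146 libraries. Its pair differences spread from -0.34 in pair 1 to 0.18 in pair 3, around a mean of -0.08 ± 0.22 (limma adjusted p = 0.742). *Eif2ak3*, encoding PERK, was 10.11, 10.24, 10.11 and 10.04 in the eGFP libraries and 10.17, 10.05, 10.17 and 10.24 in the Rnf146 libraries. It was the only gene of this list with a mean above 0, at 0.03 ± 0.16 (limma adjusted p = 0.893), and pair 2 went the other way from the rest.

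**Figure D2:**
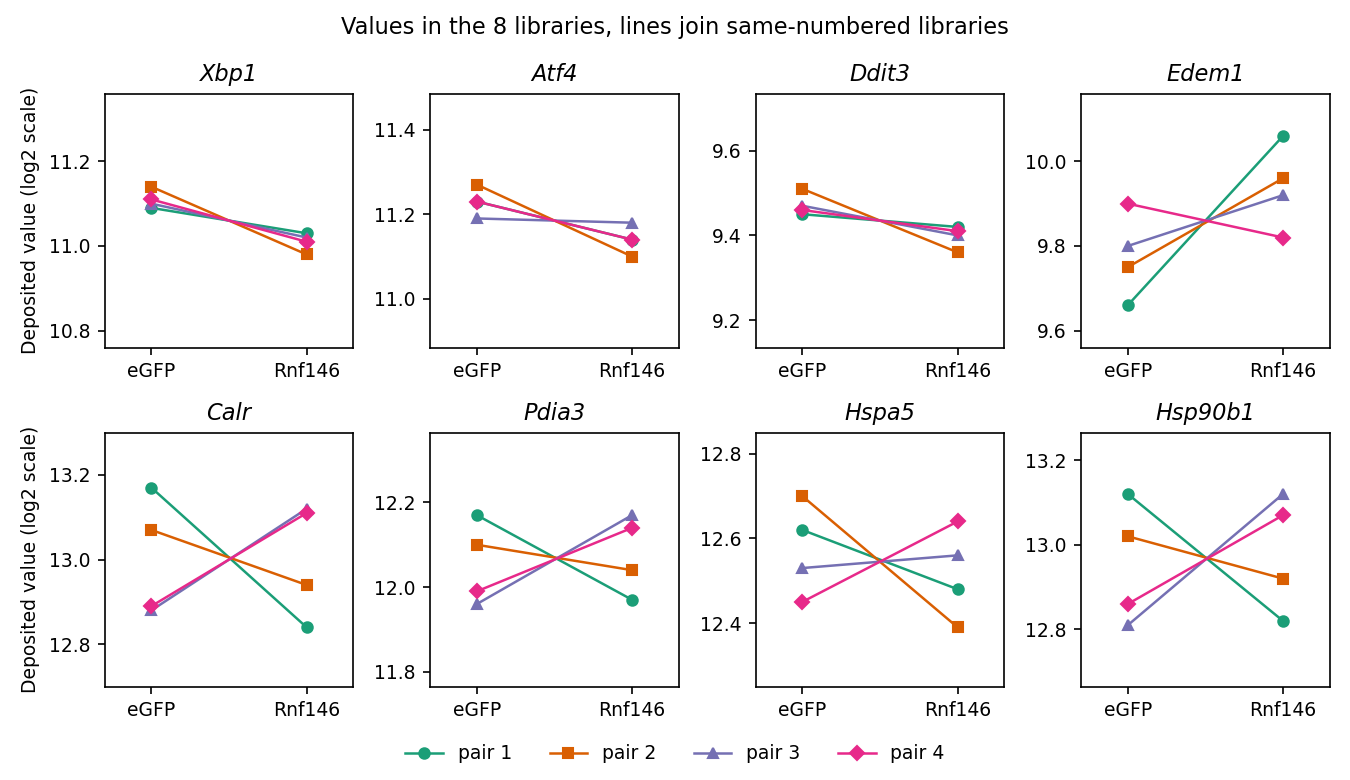
Deposited log2 values (vertical axes) of individual genes in the 4 eGFP and 4 Rnf146 libraries, with a line joining libraries of the same replicate number. *Xbp1* lies at 11.09 to 11.14 in the eGFP libraries and 10.98 to 11.03 in the Rnf146 libraries, whereas the lines of *Calr* cross. The gap in *Xbp1* follows from its 4 differences below 0, and 10.2% of all genes were lower in all 4 pairs.

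Targets of ATF4 and of the integrated stress response moved in no common direction: 3 of the 6 with values had a mean above 0 and 3 below, none was called and none was on one side of 0 in all 4 pairs. Their pair means were -0.06, 0.07, 0.03 and 0.05. The highest mean was that of *Phgdh* (GRCm39 chr3:98220484-98255047, minus strand), the first enzyme of serine synthesis. It was 10.59, 10.33, 10.39 and 10.43 in the eGFP libraries and 10.42, 10.68, 10.62 and 10.57 in the Rnf146 libraries. Pairs 2 to 4 were higher (0.35, 0.23 and 0.14) and pair 1 was lower (-0.17), giving 0.14 ± 0.22 (limma adjusted p = 0.517).

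*Psat1*, the next enzyme of serine synthesis, was 11.28, 11.27, 11.17 and 11.30 in the eGFP libraries and 11.30, 11.31, 11.41 and 11.28 in the Rnf146 libraries. Pair 3 alone, at 0.24, made up most of its mean of 0.07 ± 0.12 (limma adjusted p = 0.671). The lowest means were those of *Sesn2* and *Ppp1r15a*. *Sesn2*, the Sestrin 2 gene whose product inhibits mTORC1, was 9.27, 9.34, 9.26 and 9.30 against 9.25, 9.18, 9.26 and 9.22. Its difference was -0.06 ± 0.07 (limma adjusted p = 0.648), with pair 2 the lowest at -0.16. *Ppp1r15a* (GADD34), which directs a phosphatase to eIF2α, was 9.43, 9.32, 9.38 and 9.30 in the eGFP libraries and 9.22, 9.34, 9.28 and 9.36 in the Rnf146 libraries. Pairs 1 and 3 were lower and pairs 2 and 4 higher, with a mean of -0.06 ± 0.12 (limma adjusted p = 0.752).

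Of the genes shown above with the ATF4 core and values in the table, *Chac1* differed by 0.05 ± 0.09, *Asns* by -0.01 ± 0.14 and *Herpud1* by -0.03. Their limma adjusted p-values were 0.747, 0.953 and 0.89, so the shared core went with no shared direction in these 3 genes. The values of *Chac1* were low (8.61 to 8.77, where the lowest of the table was 7.86), so its difference may be compressed.

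The ERAD list held 10 genes, of which 5 had a mean above 0 and 5 below, with none called and none on one side of 0 in all 4 pairs. Its pair means were 0.01, 0.02, 0.02 and -0.06. *Edem1* (GRCm39 chr6:108805457-108838955, plus strand), which helps trim mannose from misfolded glycoproteins, had the highest mean of all 31 members. It was 9.66, 9.75, 9.80 and 9.90 in the eGFP libraries and 10.06, 9.96, 9.92 and 9.82 in the Rnf146 libraries. The pair differences were 0.40, 0.21, 0.12 and -0.09, and the groups overlapped. The mean was 0.16 ± 0.20 (95% interval -0.01 to 0.33, limma adjusted p = 0.436 with the block and 0.121 without it).

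Its relative *Edem2* had a mean below 0. It was 9.76, 9.72, 9.66 and 9.70 against 9.60, 9.64, 9.69 and 9.65, a difference of -0.06 ± 0.08 (limma adjusted p = 0.66). *Edem3* differed by 0.01, so the 3 EDEM genes did not move together. *Syvn1*, encoding the ERAD ubiquitin ligase HRD1, was 10.66, 10.58, 10.62 and 10.64 in the eGFP libraries and 10.51, 10.60, 10.55 and 10.53 in the Rnf146 libraries. Pairs 1, 3 and 4 were lower and pair 2 was higher by 0.02, with a mean of -0.08 ± 0.07 (limma adjusted p = 0.549 with the block and 0.0944 without it). *Syvn1* shares exon bases with *Mrpl49* on the opposite strand, which differed by -0.04.

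*Sel1l*, the partner that stabilizes HRD1, was 12.50, 12.43, 12.39 and 12.45 in the eGFP libraries and 12.40, 12.48, 12.51 and 12.46 in the Rnf146 libraries. Only pair 1 was lower, and the mean was 0.02 ± 0.09 (limma adjusted p = 0.918). The remaining ERAD members, the derlin channel genes *Derl1*, *Derl2* and *Derl3*, *Herpud1* and the lectin gene *Os9*, had means from -0.05 (*Derl2*) to 0.02 (*Derl1*). *Derl2* shares exon bases with *Mis12* on the opposite strand, which differed by 0.09. The limma adjusted p-values of these members ran from 0.761 to 0.989.

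The 9 ER folding genes had means close to 0 but moved together within a pair. In pairs 1 and 2, 8 of the 9 were lower in the Rnf146 library, in pair 3 all 9 were higher, and in pair 4 there were 7 higher and 2 lower. The list's pair means were -0.14, -0.16, 0.10 and 0.09, and their SD, 0.14, was the largest of the member lists. The median SD of a folding gene over the pairs was 0.17, against 0.10 for all genes. *Pdia3*, *Pdia4*, *Pdia6*, *Calr* and *Hyou1* were lower in pairs 1 and 2 and higher in pairs 3 and 4. That was 55.6% of the list, where 5.46% of all genes had this pattern, and no member of the other lists had it. The pattern was chosen after the values were seen and carries no test.

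**Figure D3:**
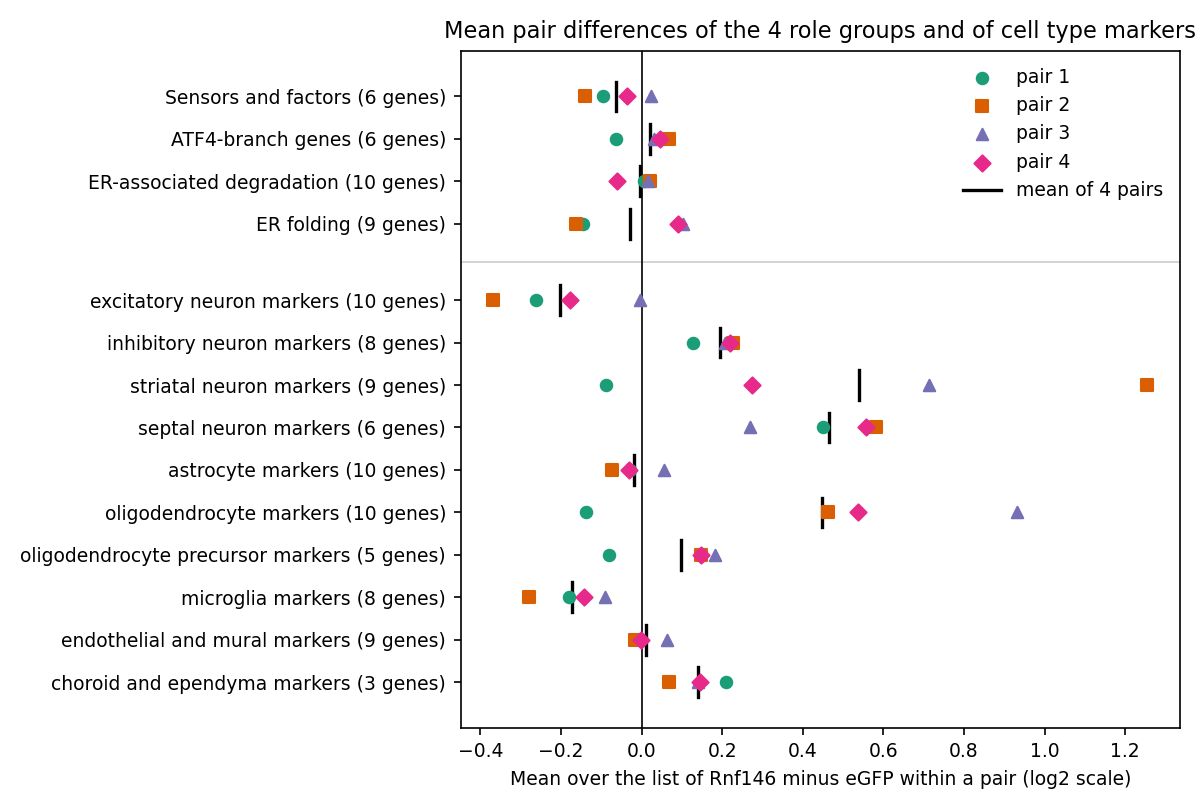
Mean difference (Rnf146 minus eGFP, log2 scale, horizontal axis) of each member list and of cell type marker lists (vertical axis) in each of the 4 pairs (points). The ER folding points lie at -0.14 and -0.16 in pairs 1 and 2 and at 0.10 and 0.09 in pairs 3 and 4. The ERAD points lie between -0.06 and 0.02.

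*Calr* (GRCm39 chr8:85567946-85573667, minus strand), shown because it had the largest SD of the members and chosen after its values were seen, encodes calreticulin, a lectin chaperone and calcium store of the ER lumen. It was 13.17, 13.07, 12.88 and 12.89 in the eGFP libraries and 12.84, 12.94, 13.12 and 13.11 in the Rnf146 libraries. The pair differences, -0.33, -0.13, 0.24 and 0.22, averaged to 0.00 ± 0.28 (95% interval -0.21 to 0.21, limma adjusted p = 0.999). Because same-numbered libraries sum to a constant, a high eGFP value and a low Rnf146 value in a pair are a single observation, and which library of the pair moved cannot be told.

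*Canx* (calnexin, the membrane-bound relative of calreticulin) was 13.16, 13.07, 13.04 and 13.04 against 13.01, 13.10, 13.13 and 13.13, a difference of 0.02 ± 0.11 (limma adjusted p = 0.936). *Pdia3*, a disulfide isomerase that works with these lectins, was 12.17, 12.10, 11.96 and 11.99 in the eGFP libraries and 11.97, 12.04, 12.17 and 12.14 in the Rnf146 libraries. Its mean was 0.02 ± 0.19 (limma adjusted p = 0.932), with pairs 1 and 2 at -0.20 and -0.06 and pairs 3 and 4 at 0.20 and 0.15. *Pdia3* shares exon bases with *Catsper2* on the opposite strand, which differed by -0.00.

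*Sdf2l1*, a partner of the ER Hsp70 system, had the lowest mean of all members. It was 9.04, 9.05, 8.84 and 8.91 in the eGFP libraries and 8.78, 8.77, 8.98 and 8.91 in the Rnf146 libraries. Pairs 1 and 2 were lower by -0.25 and -0.28 and pair 3 was higher by 0.14, giving -0.10 ± 0.20 (95% interval -0.27 to 0.07, limma adjusted p = 0.638). *Pdia6*, another disulfide isomerase, was 11.49, 11.57, 11.41 and 11.38 against 11.36, 11.27, 11.43 and 11.46. Its mean was -0.08 ± 0.17 (limma adjusted p = 0.671), and it shares exon bases with *Atp6v1c2* on the opposite strand, which differed by 0.15. The other folding genes, *Pdia4*, *Hyou1* (an ER Hsp70 relative and exchange factor), *Creld2* and *Manf* (a secreted ER stress protein), had means from -0.06 to 0.01 and limma adjusted p-values from 0.668 to 0.981. *Manf* shares exon bases with *Rbm15b* on the same strand, which differed by 0.08, and with *Dcaf1* on the opposite strand, which differed by -0.18.

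Outside the list, 7 of 19 ER chaperone and oxidase genes showed the same division between the pairs, among them *Hspa5*, *Hsp90b1* and *Dnajb11*. *Hspa5* was 12.62, 12.70, 12.53 and 12.45 in the eGFP libraries and 12.48, 12.39, 12.56 and 12.64 in the Rnf146 libraries. Its pair differences were -0.14, -0.31, 0.03 and 0.19, with a mean of -0.06 ± 0.21 (limma adjusted p = 0.814). *Hsp90b1* (GRP94) was 13.12, 13.02, 12.81 and 12.86 against 12.82, 12.92, 13.12 and 13.07. Its mean was 0.03 ± 0.28 (limma adjusted p = 0.934). *Dnajb11*, an Hsp40 cochaperone of BiP that was named after its values were seen, had pair differences of -0.24, -0.19, 0.01 and 0.10.

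**Figure D4:**
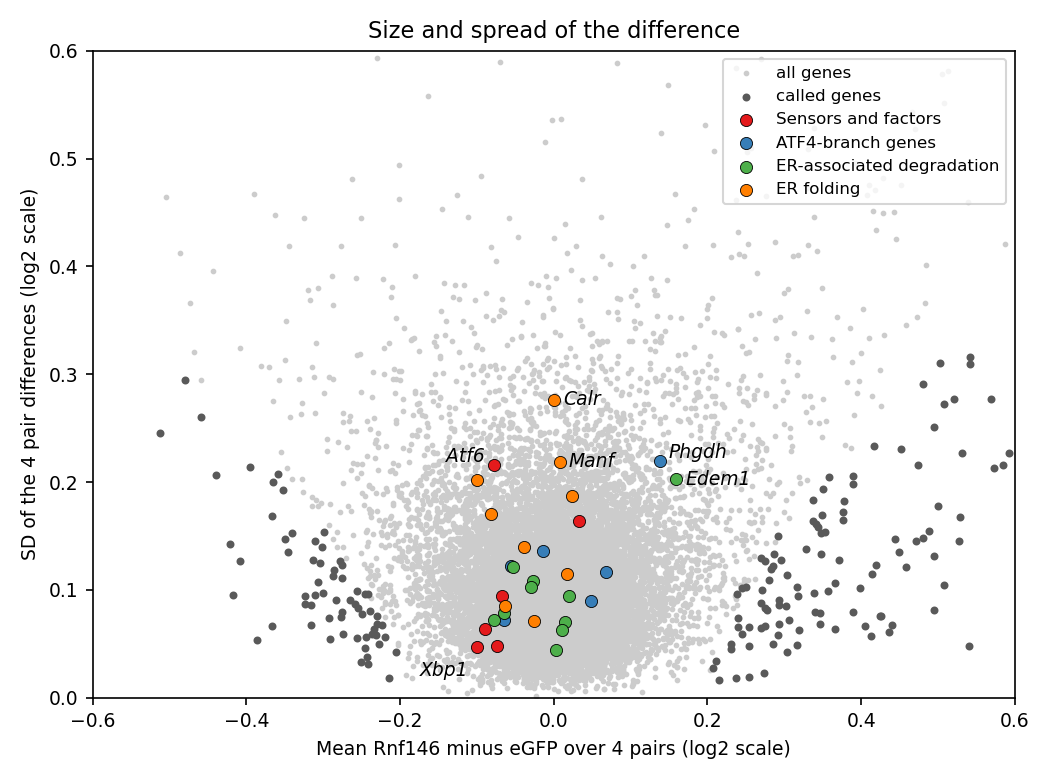
SD of the 4 pair differences (vertical axis, log2 scale) against the mean difference (Rnf146 minus eGFP, horizontal axis, log2 scale) for the members by role, over all genes of the table within ± 0.6. Members lie between -0.10 and 0.16, and *Calr* has an SD of 0.28 at a mean of 0.00.

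Cell-type markers and other measures were set beside this division. Oligodendrocyte markers (10 genes, none called) had pair means of -0.14, 0.46, 0.93 and 0.54. Striatal markers (9 genes, none called) had -0.09, 1.25, 0.71 and 0.27, and astrocyte markers (10 genes, none called) -0.03, -0.07, 0.05 and -0.03. Excitatory neuron markers (10 genes, 2 called) had -0.26, -0.37, -0.00 and -0.18, so they were lowest in the pairs where the folding genes were lower, without being higher in pairs 3 and 4. The mean of the inhibitory neuron markers (8 genes, 4 called, all higher) lay between 0.13 and 0.23 in every pair. These 8 genes were divided, with 4 means above 0 and 4 below, and 2 genes were lower in all 4 pairs. The mean of the microglial markers (8 genes, 1 called) was lower in all 4 pairs, by differences of -0.28 to -0.09. That of endothelial and mural markers (9 genes, none called) stayed between -0.02 and 0.06. The mean log2 level of the 9 striatal genes was 9.96 to 10.63 in the eGFP libraries and 10.54 to 11.21 in the Rnf146 libraries. That of the 10 excitatory genes was 11.81 to 11.99 in the Rnf146 libraries and reached 12.18 in the eGFP libraries. With equal pair sums, the absence of overlap in these levels follows from pair means below 0 (-0.00 in pair 3). It adds nothing to those pair means. Because the lowest value of the table was 7.86, a value above 0 does not show that a marker was detected. The part of these cell types in the members' values was not tested.

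Of the 6 members with an ERSE, 4 belong to the folding list, and 2 (*Calr* and *Pdia6*) were lower in pairs 1 and 2 and higher in pairs 3 and 4. In pairs 2 and 4 the 6 were divided evenly, with 3 higher and 3 lower. Their median difference was -0.05 and their pair means were -0.14, -0.07, 0.05 and 0.01. Their lowest limma adjusted p was 0.549, for *Syvn1*. Of all 17 genes of the table with this motif, 10 were members or other genes of the pathway.

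Beyond the members, 102 further genes of the pathway had values, and 1 was called, *Vldlr*. That is 0.98% of them, near the 1.25% called among all genes. *Vldlr*, the very low density lipoprotein receptor that binds reelin and is listed as an ATF4 target, was 11.36, 11.26, 11.43 and 11.34 in the eGFP libraries. It was 11.62, 11.72, 11.56 and 11.64 in the Rnf146 libraries, higher in all 4 pairs. It rose by 0.29 ± 0.13 (95% interval 0.16 to 0.42, limma adjusted p = 0.0841), and the call was lost without pair 2 (0.23, limma adjusted p = 0.328) or without pair 4 (0.28, limma adjusted p = 0.346). No other gene among the 21 ATF4 targets with values was called, and 7 of the 21 had a mean above 0 and 14 below.

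The other chaperones and oxidases of the ER numbered 19, with 10 means above 0, 9 below and none called. Their highest mean was that of the disulfide reductase gene *Dnajc10* (0.13 ± 0.10, limma adjusted p = 0.347) and their lowest that of the prolyl isomerase gene *Ppib* (-0.08, limma adjusted p = 0.589). Of these genes, 7 (36.8%) were lower in pairs 1 and 2 and higher in pairs 3 and 4, against 5.46% of all genes. This was not tested. The 19 other ERAD genes ran from *Ube2j2*, a ubiquitin-conjugating enzyme gene (-0.13, limma adjusted p = 0.345), to the lectin gene *Erlec1* (0.07, limma adjusted p = 0.725), 1 of them with the division between pairs. The 22 other sensors and regulators had 8 means above and 14 below 0. *Cebpb*, a partner of ATF4 and CHOP, was the lowest at -0.11 ± 0.04 and was lower in all 4 pairs (limma adjusted p = 0.307). *Mbtps1*, the protease that cleaves ATF6 in the Golgi, was the highest at 0.15 (limma adjusted p = 0.476), with pair 3 below 0. The 21 genes of translocation into the ER and of glycosylation had 14 means above and 7 below 0, from *Sec61a1* (-0.08, limma adjusted p = 0.616) to *Stt3a* (0.17, limma adjusted p = 0.659). The pair differences of *Stt3a*, -0.10, 0.73, -0.20 and 0.25, differed in sign, and pair 2 made up most of its mean.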

How the data were processed

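Total RNA of dissected PFC was sequenced from 4 eGFP and 4 Rnf146 libraries (TruSeq stranded mRNA). The submitters' processing notes name cutadapt, Salmon 1.9.0 and DESeq2, without a role, and build GRCm39, and the study used GENCODE vM30. The authors deposited 1 table of 15039 genes with values on a log2 scale. The transformation and the centring of same-numbered libraries are not given in the sources used here, depth is unknown, and low genes may be compressed.

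The sum of the values of a pair was equal over the 4 pairs for every gene (largest spread 1.42e-13). Deviations of same-numbered libraries from their group means therefore correlated at -1 in every pair by construction, and the replicate number was used as a block. The model was fitted with limma 3.58.1 in R 4.3.3 (trended variance, 3 residual degrees of freedom), with Benjamini-Hochberg adjustment over all genes and calls at 0.1. It was run on simulated data with a known shift that was larger than any member difference, so detection of smaller changes was not tested. No low-value filter was applied.

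Members and lists were chosen with earlier results of these data known. The 32 members were divided by role. Library values are given for called members, the sensors and factors, and the 2 highest and 2 lowest means of each other role. *Rnf146*, *Hspa5*, *Hsp90b1* and, in each other pathway list, the called genes or else the highest and lowest were also named. *Calr*, with its library values, and other genes outside this rule were named after their values were seen. Gene coordinates are from GENCODE vM39 (GRCm39). Promoters are from RefSeq (GRCm38.p6) and were matched by symbol. In this annotation 7 members share exon bases with another gene of the table, and the strand setting of the counting is not given in the sources used here. Alternatives were a fit without the block, quantile normalization, median centring, untrended, robust and weighted variances, leaving out the lowest 20% of genes, leaving out each pair, and a threshold of 0.05.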

Additional observations from a re-analysis of the deposited data

Results flagged for a closer look

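The mean difference of 5 oligodendrocyte precursor marker genes was -0.0820 in pair 1, apart from the other 3 pairs (0.1467 to 0.1829). Its distance from them passed Dixon's 95% critical ratio for 4 values. It was the only 1 of 57 sets of pair differences examined to do so, and chance alone passes about 1 in 20. No set of pair differences of a member gene or of a member list passed.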

How the results depend on the processing

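Without the replicate block, 4 of the 31 members were called instead of 0, and 13 of the 102 other pathway genes instead of 1. Of all genes, 21.5% were called without the block. The block was kept because same-numbered libraries were centred together, which makes the values of a pair dependent. No member was called under any other alternative, and their lowest adjusted p in limma was 0.109 (without pair 1). With a pair left out, the genes called in the whole table numbered from 14 (without pair 4) to 421 (without pair 1). At an adjusted p of 0.05 or less no other pathway gene was called, and with a pair left out 0 to 1 were. Over 3 instead of 4 pairs, 1 to 4 members were higher throughout and 3 to 10 were lower throughout, the 10 without pair 3. The share of all genes over the same 3 pairs was not computed, so these counts show nothing particular to the members. The median difference of the members stayed between -0.0502 and -0.0100 under every alternative. Direction was the same under every alternative for 16 members and turned with a pair left out for 15: *Eif2ak3* (-0.0253 to 0.1066), *Atf6* (-0.1626 to 0.0098), *Asns* (-0.0502 to 0.0516), *Sel1l* (-0.0155 to 0.0598), *Herpud1* (-0.0773 to 0.0052), *Derl1* (-0.0131 to 0.0348), *Derl3* (-0.0676 to 0.0123), *Edem3* (-0.0098 to 0.0330), *Os9* (-0.0151 to 0.0185), *Pdia3* (-0.0355 to 0.0983), *Pdia4* (-0.0452 to 0.0054), *Calr* (-0.0794 to 0.1106), *Canx* (-0.0100 to 0.0730), *Manf* (-0.0777 to 0.1006) and *Hyou1* (-0.0859 to 0.0151). *Os9* also turned under quantile normalization (-0.0030). None of these passed the threshold in either direction, and the cause was not tested. With 4 pair differences a gene, changes of the size found here (up to 0.16) were below the smallest called difference of any gene (0.2050). Without the lowest 20% of genes 29 members kept a value.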
